A study of Homo sapiens with 10 samples.

Results

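The dual-specificity MAP kinase phosphatases examined here are the products of 10 genes, DUSP1, DUSP2, DUSP3, DUSP4, DUSP5, DUSP6, DUSP8, DUSP10, DUSP14 and DUSP16. The members were all array probes annotated to these genes, which gave 15 probes of the 24105 that entered the analysis. RNA had been measured on 10 Illumina Human-8 V1 bead arrays in MDA-MB-435, an established human melanoma cell line. The groups were cells given HGF (hepatocyte growth factor) for 1 h, 6 h or 24 h, cells transduced with integrin beta-4 (ITGB4) and untreated cells of the same line. Each of the 5 groups held 2 arrays, described as biological duplicates. The labels name no vehicle, no empty vector and no untreated cells of a matched time, so all 4 comparisons share the same 2 untreated arrays. P-values measure the spread between such duplicates, pooled over the 5 groups.

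MAP kinases such as ERK, p38 and JNK are switched on by phosphorylation of a threonine and a tyrosine in their activation loop. Dual-specificity phosphatases remove both phosphates and so switch the kinases off, and several of their genes are themselves induced by MAP kinase signalling, which makes them a negative feedback arm of growth factor receptors such as MET, the receptor of HGF. DUSP1, DUSP2, DUSP4 and DUSP5 act in the nucleus and DUSP6 in the cytoplasm. DUSP5 and DUSP6 are selective for ERK, while DUSP8, DUSP10 and DUSP16 act mainly on JNK and p38. DUSP3 and DUSP14 are small atypical members that lack the amino-terminal kinase-docking domain of the others.

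Proximal promoters of 8 of the 10 genes were found in RefSeq (GRCh38.p14), and DUSP4 and DUSP5 were not matched. The 250 bases before the transcription start are shown, 5′ to 3′ on the coding strand, for DUSP1, the member best known as an early response gene, and for DUSP14 and DUSP16, whose signals lay on opposite sides of each other in the comparison of 24 h with 6 h described later. Capitals mark every match, on either strand and with overlaps kept, to the cyclic AMP response element (CRE, TGACGTCA), its core TGACG, the AP-1 site TGANTCA, the ETS site CCGGAAG, the SP1 site GGGCGG, the E-box CACGTG and the CArG box of serum response factor. The windows lie at chr5:172771196-172771445 (minus strand), chr17:37489641-37489890 (plus strand) and chr12:12562864-12563113 (minus strand).
DUSP1: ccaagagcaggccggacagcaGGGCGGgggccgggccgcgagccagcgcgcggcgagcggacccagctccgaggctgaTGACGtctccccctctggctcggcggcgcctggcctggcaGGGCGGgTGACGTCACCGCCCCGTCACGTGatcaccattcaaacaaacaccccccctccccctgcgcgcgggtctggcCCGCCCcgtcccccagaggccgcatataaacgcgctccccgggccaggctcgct
DUSP14: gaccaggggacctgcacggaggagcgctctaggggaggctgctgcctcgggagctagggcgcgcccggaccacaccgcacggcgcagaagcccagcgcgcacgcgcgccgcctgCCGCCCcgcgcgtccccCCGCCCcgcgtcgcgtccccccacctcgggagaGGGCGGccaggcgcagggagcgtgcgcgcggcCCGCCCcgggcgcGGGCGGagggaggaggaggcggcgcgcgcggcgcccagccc
DUSP16: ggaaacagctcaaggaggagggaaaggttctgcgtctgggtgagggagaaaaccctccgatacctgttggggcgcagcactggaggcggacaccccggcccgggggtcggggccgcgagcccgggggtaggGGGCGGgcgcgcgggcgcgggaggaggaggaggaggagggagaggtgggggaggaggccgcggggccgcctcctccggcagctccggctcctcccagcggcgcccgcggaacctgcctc

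In the DUSP1 window a full CRE lay 125 to 118 bases before the start, 4 matches to its core were found in all, 2 of them within that CRE, and an E-box lay 108 to 103 bases before the start. A full CRE was present in 2 of the 8 member promoters, DUSP1 and DUSP8, and in 1.77% of 27305 promoter windows of the same length. The core TGACG was present in 3 of 8 (21.7% of all windows), the SP1 site in 7 of 8 (42.3%) and the E-box in 2 of 8 (6.49%). The AP-1 site, the ETS site and the CArG box were found in 0 of 8, against 6.6%, 8.82% and 1.14% of all windows. These matches describe the letters of the windows, not sites in use.

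Between 42.4% and 49.4% of probes were detected per array, that is, had a detection score of at least 0.99 on the scale from 0 to 1 that rises with the distance from the negative controls. The transduced gene set the ITGB4 arrays apart, with scanner signals of 6528.1 and 4700.9 against 59.1 and 68.1 on the untreated arrays. Of 9 measured markers of the melanocyte lineage 8 were detected on all 10 arrays, among them PMEL, TYRP1 and SOX10, whereas EPCAM and CDH1 of epithelium, COL1A1 and COL3A1 of fibroblasts and CD3E of T cells were detected on none. Of 8 epithelial, 7 fibroblast and 6 immune markers, 3, 3 and 4 were detected on at least 1 array. On all 10 arrays 1, 2 and 2 were detected, namely KRT18, then DCN and LUM, then CD68 and LYZ. The summed normalised signal of the melanocyte markers ran from 24671.6 to 27805.3 on the untreated arrays, 22105.1 to 24372.6 at 1 h, 18108.3 to 19135.3 at 6 h and 20998.8 to 24077.3 at 24 h. In the same order the sums were 861.4 to 863.1, 936.8 to 1052.4, 993.9 to 1028.7 and 780.5 to 985.8 for the epithelial markers, and 1249.5 to 1332.6, 956.4 to 1069.4, 913.8 to 987.7 and 975 to 1105.3 for the fibroblast markers. For the immune markers they were 560.2 to 613.2, 634 to 759.3, 618 to 702 and 584.7 to 700.1. In ITGB4 cells the sums were 22661.2 to 22882.6 for the melanocyte and 1097.8 to 1244.9 for the fibroblast markers, both below the untreated arrays. They were 845.8 to 918.3 for the epithelial and 598.7 to 672.8 for the immune markers. The melanocyte sum was thus lowest and separate at 6 h, where DUSP5 was highest. The fibroblast sum was lower than in untreated cells at every HGF time and in ITGB4 cells. The part of these shifts in the values of the phosphatases was not tested. Scores of undetected probes were lower on 4 arrays, the first replicates of untreated and of all HGF-treated cells, than on the other 6 (25th percentile 0.00011 to 0.0035, against 0.055 to 0.217), so differences are also given within replicate 1 and within replicate 2, which for these groups keeps each kind of array apart.

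The phosphatases fell into a detected and an undetected set that was nearly the same on every array. Probes of 8 genes, DUSP1, DUSP3, DUSP4, DUSP5, DUSP6, DUSP10, DUSP14 and DUSP16, were detected on all 10 arrays. DUSP2, best known from lymphocytes, was detected on 1 array, HGF 1 h replicate 1, with a normalised signal of 88 there and of 61.3 to 85.7 on the other 9, all under the detection limit of 89.6. DUSP8 was not well above background on any array (61.4 to 84.5). No fold is given for either gene.

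For 3 genes the array held several probes, and the detected and the undetected ones belong to different transcript annotations. The suffix -A marks a probe shared by all annotated isoforms and -I a probe for a particular isoform. DUSP6 gave 431.3 to 863.1 with its shared probe (GI_12707567-A) and 55.1 to 86.6, never detected, with an isoform probe (GI_4503418-I). DUSP10 gave 134.2 to 178.2 with its shared probe (GI_21536332-A), while its isoform probes GI_21536330-I (48.9 to 56.9) and GI_21536334-I (59.9 to 85) were detected on 0 of 10 arrays. DUSP4 was detected by its shared probe (GI_34328908-A) and by the isoform probe of the same transcript (GI_34328908-I), but not by the isoform probe of its other transcript (GI_21536335-I, 67.8 to 82.1). Signals of different probes were not compared as levels, since each probe has its own brightness. In all, 10 of the 15 probes, from 9 of the 10 genes, passed the filter of detection on at least 1 array and were tested, and DUSP2 passed it through a single array.

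**Figure D1:**
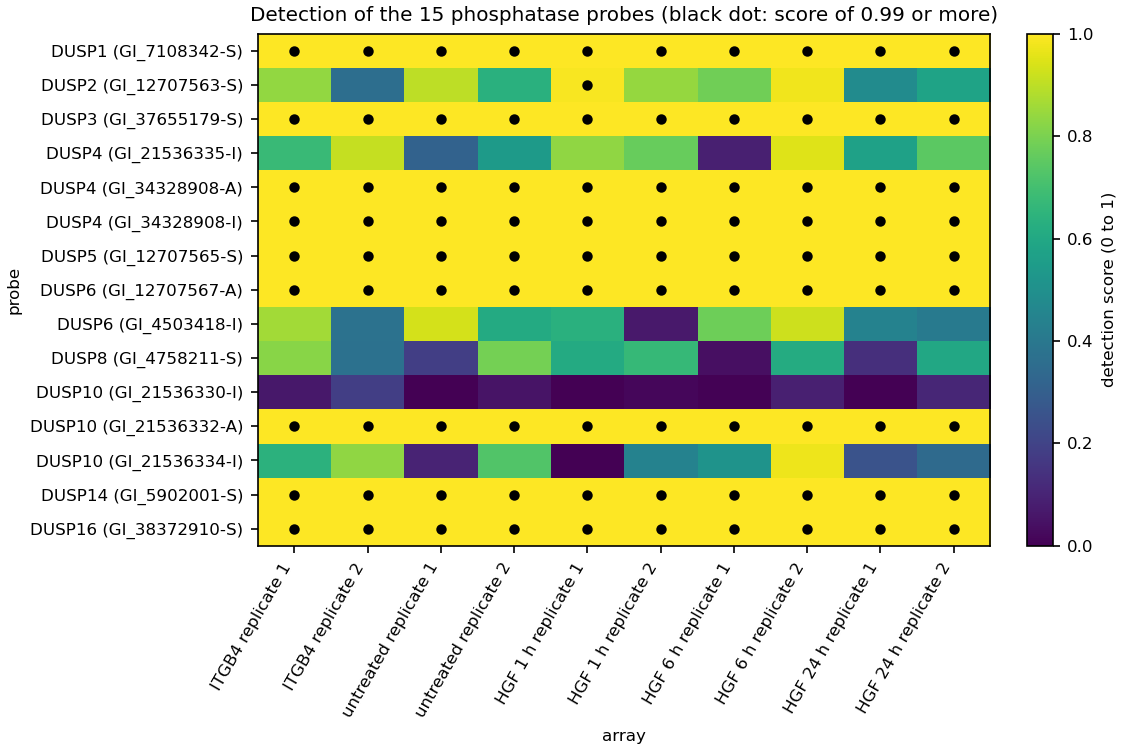
Detection score (colour, 0 to 1) of the 15 phosphatase probes (rows) on the 10 arrays (columns), with a black dot where the score was 0.99 or more. Probes of 8 genes have dots on all 10 arrays, DUSP2 has a dot on HGF 1 h replicate 1, and DUSP8 and 4 isoform probes of DUSP4, DUSP6 and DUSP10 have none.

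DUSP5, the nuclear phosphatase of ERK, was the member with the largest moderated F over the 5 groups (rank 127 of 14018 probes). Its normalised signal was 158.5 and 131.6 in untreated cells, 175.2 and 152.5 after 1 h of HGF, 228.7 and 238 after 6 h, and 117.3 and 118.7 after 24 h. Both 6 h arrays lay above all other arrays of the series, and both 24 h arrays lay below the untreated and the 1 h arrays. In ITGB4 cells it was 124.5 and 120.1, against 158.5 and 131.6 in untreated cells. By group mean of the log2 signal the order was HGF 6 h (7.87 ± 0.04), HGF 1 h (7.35 ± 0.14), untreated (7.17 ± 0.19), ITGB4 (6.93 ± 0.04) and HGF 24 h (6.88 ± 0.01; SD, n = 2 each).

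DUSP5 rose after 6 h of HGF by log2 0.69 ± 0.16 against untreated cells (SE, 1.62-fold, adjusted p = 0.045 by limma over 14018 probes). The difference was 0.53 within replicate 1 and 0.85 within replicate 2. It ranked 242nd of the 14018 probes by p. This call was at the edge of the threshold. It ended with normexp background correction (1.00, adjusted p = 0.075), with median scaling (0.55, adjusted p = 0.14) and with the pooled-variance test (0.69, adjusted p = 0.11). It ended with the series value table too (1.23, adjusted p = 0.059), whose fit includes a column, ITGB4 replicate 2, that did not match its sample. It also ended without any of 8 arrays, all but those of HGF 24 h, with differences from 0.55 to 0.83 and adjusted p from 0.033 to 0.28 over the 10 arrays left out in turn.

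DUSP5 was lower at 24 h than at 6 h by log2 -0.98 ± 0.16 (1.98-fold lower, adjusted p = 0.0036 by limma, rank 124), with -0.96 within replicate 1 and -1.003 within replicate 2. This difference stayed past the threshold without any 1 of the 10 arrays (adjusted p from 0.0043 to 0.037) and under all 9 other settings (adjusted p from 0.00028 to 0.047), where it was larger with normexp background correction (-1.50) and in the series value table (-1.81). The difference of 24 h from untreated cells (-0.29 ± 0.16, adjusted p = 0.86) and that of 24 h from 1 h (-0.47 ± 0.16, adjusted p = 0.67) did not pass the test. Of the neighbours in the order of levels, none of those tested differed past the threshold, and ITGB4 was not set against HGF 24 h. The difference of 6 h from 1 h was 0.51 ± 0.16 (adjusted p = 0.084), and that of 1 h from untreated cells was 0.18 ± 0.16 (adjusted p = 0.69) and that of ITGB4 from untreated cells was -0.24 ± 0.16 (adjusted p = 1).

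**Figure D2:**
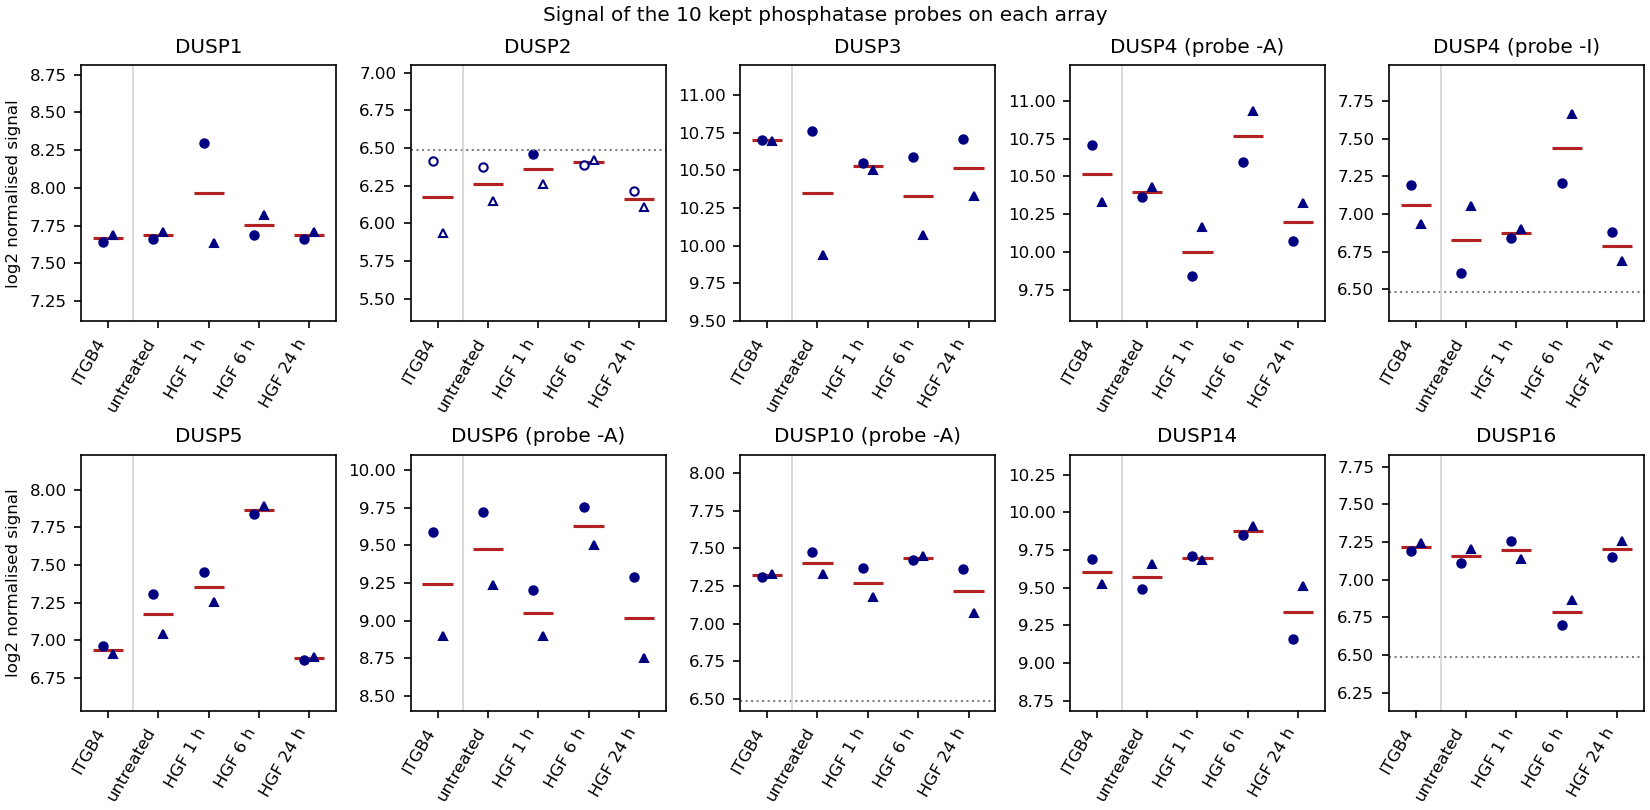
Log2 normalised signal of the 10 tested phosphatase probes on each array, with a panel for each probe, groups along the horizontal axis, circles for replicate 1, triangles for replicate 2, open symbols where the probe was not detected, red lines for the group mean and a dotted line at the detection limit where it falls in the panel. The panels share a span of the vertical axis but not its position, and DUSP5 peaks at 7.87 at 6 h while DUSP16 is lowest there.

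DUSP4, a nuclear phosphatase of ERK and JNK, had its lowest array at 1 h and its highest at 6 h. With the shared probe the normalised signal was 1316.2 and 1380.5 in untreated cells, 915.7 and 1146 at 1 h, 1545.3 and 1961.7 at 6 h, and 1075.4 and 1283.1 at 24 h. The 1 h arrays lay below and the 6 h arrays above the untreated arrays, without overlap. ITGB4 cells gave 1670.3 and 1289.8, a pair of values that spans those of untreated cells. DUSP4 was higher at 6 h than at 1 h by log2 0.77 ± 0.19 (1.70-fold, adjusted p = 0.042 by limma), with 0.75 within replicate 1 and 0.78 within replicate 2. The call ended under 6 of 9 other settings (adjusted p of 0.058 to 0.18 there) and without any of 6 arrays, which were both untreated, both HGF 6 h, HGF 1 h replicate 1 and ITGB4 replicate 2, with adjusted p from 0.026 to 0.41 over the 10 arrays left out in turn. Against untreated cells the difference was -0.40 ± 0.19 at 1 h (adjusted p = 0.40) and 0.37 ± 0.19 at 6 h (adjusted p = 0.39). The difference of 24 h from 6 h was -0.57 ± 0.19 (adjusted p = 0.095). None of these passed the test.

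The isoform probe of DUSP4 gave 97.6 and 132.6 in untreated cells, 114.8 and 119.6 at 1 h, 147.7 and 203.2 at 6 h, and 117.8 and 103.3 at 24 h. In ITGB4 cells it gave 146.4 and 122, a difference of 0.23 ± 0.20 from untreated cells. As with the shared probe, both 6 h arrays lay above the untreated, the 1 h and the 24 h arrays. None of its differences passed the test, with 0.61 ± 0.20 for 6 h against untreated cells (adjusted p = 0.15), 0.56 ± 0.20 for 6 h against 1 h (adjusted p = 0.13) and -0.65 ± 0.20 for 24 h against 6 h (adjusted p = 0.065). The first of these was 0.38 without untreated replicate 1 or without HGF 6 h replicate 2, and larger with normexp background correction (1.03) and in the series value table (1.45). With the shared probe the 1 h arrays lay below the untreated ones, whereas here they lay between them. Both probes detect the same transcript and are not independent measurements of the gene.

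DUSP6, the cytoplasmic phosphatase of ERK, had normalised signals of 843.7 and 603.5 in untreated cells, 590.2 and 477.2 at 1 h, 863.1 and 725.6 at 6 h, and 625.2 and 431.3 at 24 h. The 1 h arrays lay below the untreated arrays and the 6 h arrays above the 1 h and the 24 h arrays, but replicate 1 was the higher of the pair in each group. ITGB4 cells gave 769.9 and 477.6, against 843.7 and 603.5 in untreated cells, with overlap. The differences were -0.43 ± 0.25 for 1 h (adjusted p = 0.50) and -0.46 ± 0.25 for 24 h (adjusted p = 0.86) against untreated cells, 0.58 ± 0.25 for 6 h against 1 h (adjusted p = 0.22) and -0.61 ± 0.25 for 24 h against 6 h (adjusted p = 0.18). None passed the test. Within replicates 1 and 2 they were -0.52 and -0.34, -0.43 and -0.48, 0.55 and 0.60, and -0.47 and -0.75. Over single arrays left out, the difference from untreated cells ran from -0.67 to -0.19 at 1 h and from -0.73 to -0.19 at 24 h, nearest 0 without untreated replicate 1 and without HGF 24 h replicate 2. The 95% interval of the 24 h against 6 h difference ran from -1.16 to -0.06, and without HGF 24 h replicate 2 the difference was -0.34.

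DUSP1, the nuclear phosphatase of p38, JNK and ERK whose promoter is shown above, was nearly flat apart from a single array. Its normalised signal was 202.1 and 209.4 in untreated cells, 314 and 198.4 at 1 h, 205.7 and 226.2 at 6 h, and 202.5 and 209.2 at 24 h, with 199.8 and 206 in ITGB4 cells. HGF 1 h replicate 1 stood above all other arrays, and its duplicate was the lowest of all. The difference at 1 h was 0.28 ± 0.20 (adjusted p = 0.58), with 0.64 within replicate 1 and -0.08 within replicate 2, and without HGF 1 h replicate 1 it was -0.052. That of 24 h against 1 h was -0.28 ± 0.20 (adjusted p = 0.999), and 0.052 without the same array.

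Of the phosphatases that act mainly on JNK and p38, DUSP16 had its lowest arrays where DUSP5 had its highest. Its signal was 138.5 and 147.8 in untreated cells, 153 and 141.1 at 1 h, 104.2 and 116.8 at 6 h, and 142.3 and 153.3 at 24 h, with 145.9 and 151.4 in ITGB4 cells. Both 6 h arrays lay below all other arrays, though the probe rested on as few as 7 and at most 36 beads per array, against an array median of 26 to 32. The differences did not pass the test, with -0.37 ± 0.15 for 6 h against untreated cells (adjusted p = 0.24), -0.41 ± 0.15 for 6 h against 1 h (adjusted p = 0.14) and 0.42 ± 0.15 for 24 h against 6 h (adjusted p = 0.12). DUSP10 was detected throughout and varied little, with 178.2 and 161.2 in untreated cells, 165.1 and 144.6 at 1 h, 171.6 and 174.7 at 6 h, and 164.8 and 134.2 at 24 h, and its differences from untreated cells had adjusted p from 0.80 to 1.

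The duplicates of the atypical members DUSP3 and DUSP14 were nearly alike in spread at 1 h and at 24 h. Those of DUSP3 lay further apart in untreated cells and at 6 h, and closer together in ITGB4 cells. DUSP14 had 718.6 and 807.7 in untreated cells, 837.8 and 820.9 at 1 h, 923.6 and 960.3 at 6 h, and 572.4 and 730.5 at 24 h, and 824.8 and 737.6 in ITGB4 cells. The 6 h arrays were the highest of the series. The 24 h against 6 h difference was -0.54 ± 0.17 (adjusted p = 0.064), that of 24 h against 1 h was -0.36 ± 0.17 (adjusted p = 0.79) and that of 24 h against untreated cells was -0.24 ± 0.17 (adjusted p = 0.90). DUSP3 had 1733.6 and 979 in untreated cells, 1498.6 and 1451.7 at 1 h, 1537.7 and 1075.4 at 6 h, and 1669.5 and 1288.8 at 24 h. Its untreated duplicates enclosed every other array. The difference of ITGB4 cells (1668.4 and 1659.9) from untreated cells was 0.35 ± 0.25 (adjusted p = 1), and -0.060 without untreated replicate 2.

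**Figure D3:**
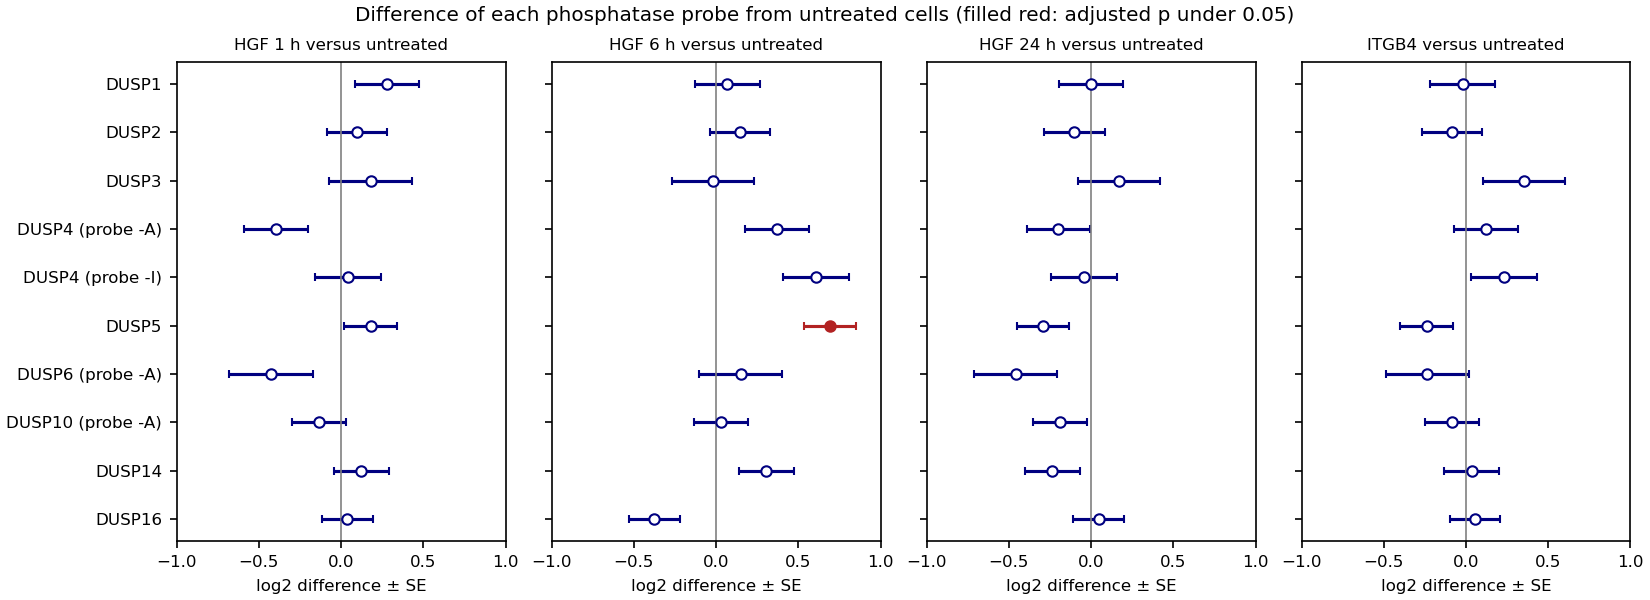
Log2 difference from untreated cells (horizontal axis, bars are the SE of the fit) of the 10 tested phosphatase probes (rows) in the 4 comparisons (panels), filled red where the adjusted p was under 0.05. DUSP5 at 6 h (0.69) is the single filled point.

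Read across the comparisons with untreated cells, limma called 0 of the 10 tested phosphatase probes at 1 h, where 0% of all 14018 probes were called, 1 at 6 h, where 1.9% of all probes were called and 0.97% were called higher, and 0 at 24 h, where again 0% were called. In ITGB4 cells 0 of 10 were called, and 0.00713% of all probes, a single probe. At an unadjusted p under 0.05 the members numbered 0 at 1 h, 3 at 6 h (DUSP4 with its isoform probe and DUSP5 higher, DUSP16 lower), 0 at 24 h and 0 in ITGB4 cells, beside 13.5%, 16%, 5.71% and 0.835% of all probes (1897, 2236, 800 and 117). The pooled-variance test without moderation called 0 members in each of these comparisons. The median log2 difference of the 10 probes was 0.07, 0.15, -0.14 and 0.01 in the same order, beside medians of 0.04, 0.01, 0.01 and -0.00 over all probes. Both 6 h arrays lay above both untreated arrays for 5 of the 10 probes, those of DUSP2, DUSP4 (both probes), DUSP5 and DUSP14, against 20.7% of all probes. DUSP4 is thus counted by both of its probes, and DUSP2 was not detected on any of these arrays.

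The times of HGF treatment were also set against each other. Between 1 h and 6 h limma called 1 of the 10 probes, DUSP4 with its shared probe, while 4.67% of all probes were called and 2.24% were called higher. Both 6 h arrays lay above both 1 h arrays for 6 of 10 probes, those of DUSP4 (both probes), DUSP5, DUSP6, DUSP10 and DUSP14, against 22.7% of all probes. An unadjusted p under 0.05 was found for 5 of 10, with DUSP4 (both probes), DUSP5 and DUSP6 higher and DUSP16 lower, and for 20.5% of all probes. Between 6 h and 24 h, DUSP5 was called among the 10, while 8.31% of all probes were called and 4.07% were called lower. Here both 24 h arrays lay below both 6 h arrays for 7 of 10, the same probes and that of DUSP2, against 20.3% of all probes. The median of the 10 probes was -0.39, beside -0.00 over all probes, with DUSP4 counted by both of its probes and DUSP2 detected on none of these arrays. An unadjusted p under 0.05 was found for 6 of 10, with DUSP4 (both probes), DUSP5, DUSP6 and DUSP14 lower and DUSP16 higher, and for 21.3% of all probes. Between 1 h and 24 h limma called 0 of 10, and 0% of all probes, with 1 member (DUSP5) and 6.33% of all probes at an unadjusted p under 0.05. The comparisons between times share arrays with each other, so the values for 6 h against 1 h and for 24 h against 6 h both rest on the 2 arrays of 6 h. In each count without overlap given with a share, DUSP16 lay on the opposite side. Against untreated cells, 1 probe lay above and 2 below without overlap at 1 h. At 24 h and in ITGB4 cells 0 lay above and 2 below. For 24 h against 1 h 0 lay above and 3 below. Shares over all probes are not given for these other counts.

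**Figure D4:**
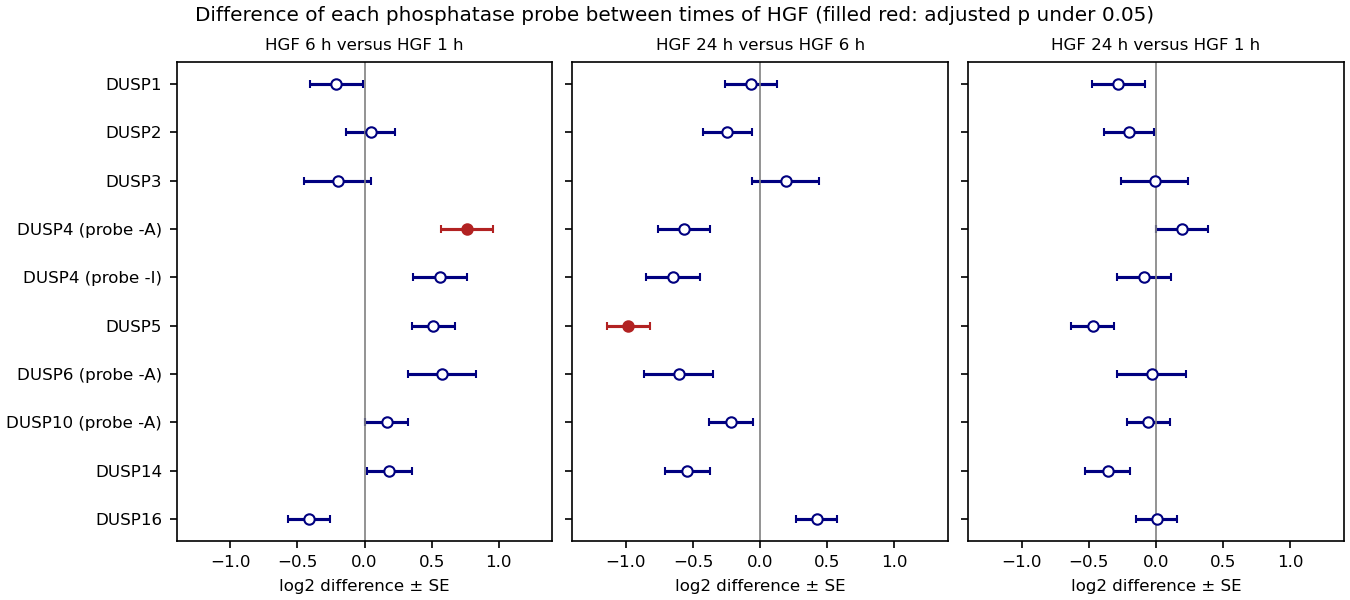
Log2 difference between times of HGF treatment (horizontal axis, bars are the SE of the fit) of the 10 tested phosphatase probes (rows), filled red where the adjusted p was under 0.05. DUSP4 (shared probe) at 6 h against 1 h (0.77) and DUSP5 at 24 h against 6 h (-0.98) are the filled points.

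With the low or high background of the arrays as a block, a split defined from the scores, more members passed the test. The block gave 2 called probes at 6 h against untreated cells, DUSP5 (adjusted p = 0.0093) and the isoform probe of DUSP4 (adjusted p = 0.047), and called 7.6% of all probes. It gave 3 for 6 h against 1 h, both DUSP4 probes and DUSP5 (adjusted p = 0.027), and called 12.1% of all probes. For 24 h against 6 h it gave 6, with both DUSP4 probes, DUSP5, DUSP6 (adjusted p = 0.042) and DUSP14 (adjusted p = 0.019) lower and DUSP16 (adjusted p = 0.047) higher, and called 15.4% of all probes. The block left the size of these differences as it was.

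The probes whose pattern over the 10 arrays was most like that of DUSP5 were those of TMEM43 (Pearson r = 0.98), NIP7 (0.97) and TRMT6 (0.97). Nearest to the shared probe of DUSP4 were LRR1 (0.95), SKP2 (0.95) and PRRX1 (0.94), and nearest to its isoform probe PIGW (0.96), SPOCD1 (0.93) and WTAP (0.93). These are the highest correlations among the kept probes of other genes with a symbol. They rest on 10 arrays that share the same treatments and are given as a description. Among the members themselves, the correlation with DUSP5 was highest for DUSP14 (0.75) and lowest for DUSP16 (-0.83).

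Other genes of the pathway that passed the detection filter were counted by list, each by its kept probe of highest mean signal. Their other probes were not counted. The kept genes included 12 other dual-specificity phosphatases and 13 other MAP kinase phosphatases and their subunits. They also included 5 MAP kinases and 12 genes from MET and RAS to the MAP kinase kinases. In these lists limma called 0 genes in any of the 4 comparisons with untreated cells or the 3 between times. Of 15 MAP kinase effectors 1 was called, ELK4, an ETS partner of serum response factor, which was lower at 24 h than at 6 h (-0.69 ± 0.18, adjusted p = 0.035). In that comparison 8.31% of all probes were called. The 17 genes of ERK feedback and output held more calls. At 6 h against untreated cells, where 1.9% of all probes were called, 2 genes of the list were called higher and 2 lower, and 13 were not called. Those called included CCND1, cyclin D1 (1.295 ± 0.29, adjusted p = 0.039), and the transcription factors MAFF (-1.08 ± 0.22, adjusted p = 0.030) and ETV5 (-0.96 ± 0.18, adjusted p = 0.025). At 24 h against 6 h, where 8.31% of all probes were called, 2 genes of the list were higher and 4 lower. EGR1, the early zinc finger factor (-1.93 ± 0.46, adjusted p = 0.021), and CCND1 (-1.74 ± 0.29, adjusted p = 0.0040) were lower, as DUSP5 was, and MAFF (0.98 ± 0.22, adjusted p = 0.016) was higher. For 6 h against 1 h, where 4.67% of all probes were called, 1 was higher (CCND1) and 2 were lower (MAFF and ETV5). The pooled-variance test called 0 of all probes at 6 h against untreated cells and 0 at 6 h against 1 h. The calls of those comparisons thus ended under it. At 24 h against 6 h it called 107 of all probes, and whether the listed genes were among them was not looked at. The list medians at 6 h against untreated cells ran from -0.11 (MAP kinases) to 0.16 (ERK feedback and output), beside -0.00 over all genes.

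**Figure D5:**
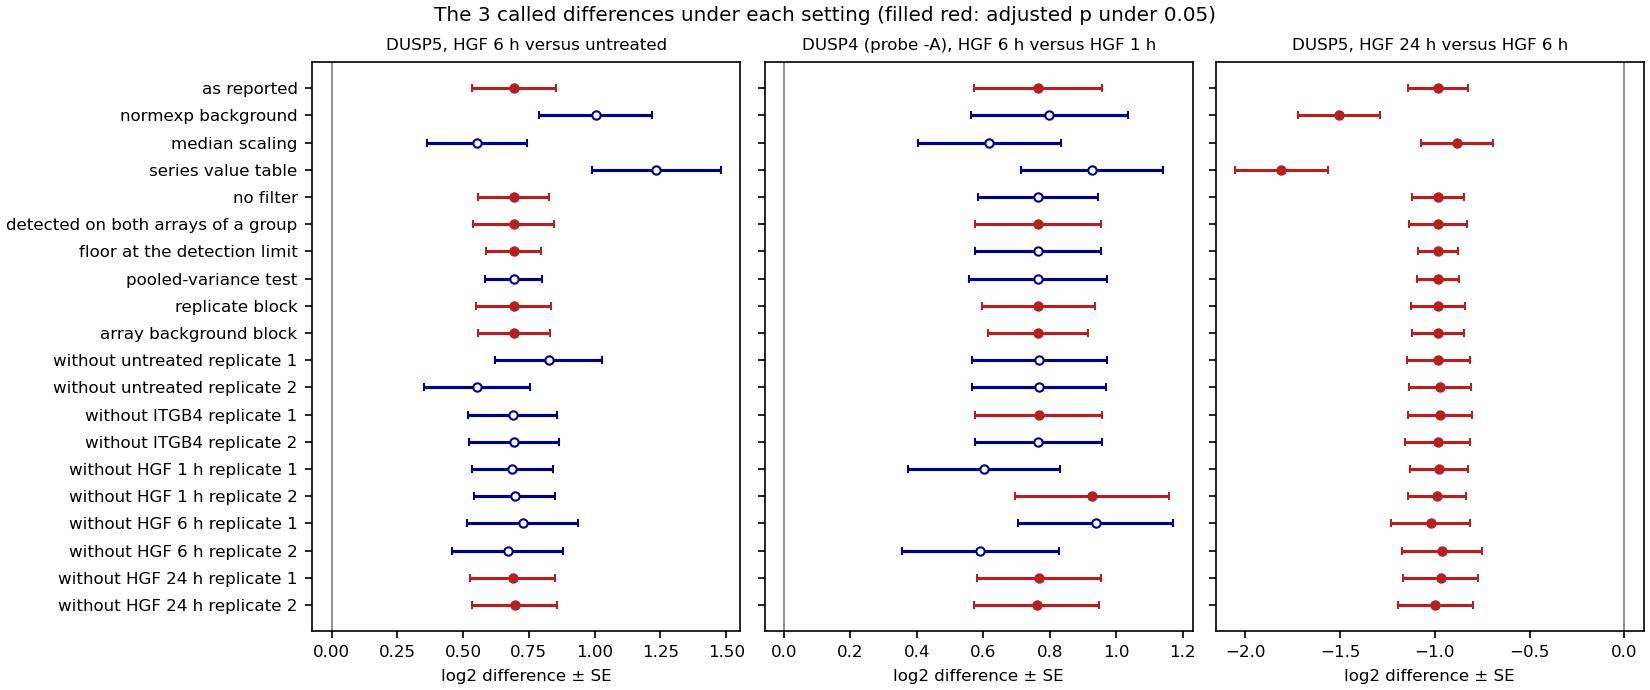
The 3 called differences of phosphatase probes (panels) under each setting of the processing (rows), as log2 difference (horizontal axis, bars are the SE), filled red where the adjusted p was under 0.05. DUSP5 at 24 h against 6 h is filled in every row, while DUSP5 at 6 h and DUSP4 at 6 h against 1 h lie at 0.69 and 0.77 as reported and lose the call in several rows.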

How the data were processed

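Total RNA had been labelled with biotin and hybridised to 10 arrays, 2 for each group given by the sample titles. The authors deposited a scanner table per array, written by BeadStudio 1.5.1.3 per the submitters' processing notes, with the intensity of each probe (mean bead brightness, linear scale, not normalised), a detection score and, as another kind of value, the number of beads. A deposited value table holds intensities the authors had normalised by the rank-invariant method, some of them below 0, and it was used as an alternative. Its column of ITGB4 replicate 2 did not match the scanner table of that sample (Spearman correlation 0.968, against at least 0.999998 for the other 9). The scanner tables were therefore used for the main values, while the alternative kept this column. It enters the pooled spread of all comparisons there.

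Of 24136 probes, 22 controls and 9 that lacked an intensity on an array were left out. Intensities were quantile normalised and log2 transformed without a floor, and 14018 probes with a detection score of 0.99 or more on at least 1 array were kept. Each was fitted with limma 3.58.1 in R 4.3.3, as 5 group means over all 10 arrays, with two-sided moderated tests of 7 contrasts and Benjamini-Hochberg adjustment over the 14018 probes (called at an adjusted p under 0.05). The study's own test also takes its spread from all groups. Its permutation step was not used. The fit had 5 residual and 8.16 prior degrees of freedom, and the number of arrays limits the precision. The fit was tested on simulated data with independent noise on each array, which cannot show how it behaves where arrays share deviations. The detection limit of 89.6 is the median over arrays of the lowest detected normalised signal. Current gene symbols came from the platform annotation through the Entrez number. Full statistics were given for called member probes and, in a contrast with none, for the 3 with the largest moderated statistic, and in addition for members with an unadjusted p under 0.05. The members, lists and this rule were chosen with earlier results of these data known. Promoter motifs were searched in the 250 bases before each RefSeq start. Alternatives were normexp background correction with an offset of 16, median scaling, the value table floored at 16, no filter, detection on both arrays of a group, a floor at the detection limit, the pooled-variance test, the replicate number or the array background as a block, and each array left out.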

Additional observations from a re-analysis of the deposited data

Results flagged for a closer look

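A difference between HGF times passed the test for 2 members. With no untreated cells of a matched time, HGF and time in culture cannot be told apart. DUSP4, with its shared probe, was higher at 6 h than at 1 h by log2 0.77, and DUSP5 was lower at 24 h than at 6 h by log2 -0.98. The first call was lost under 6 of 9 other settings and without any of 6 arrays, and the second held without each of the 10 arrays. DUSP4 at 6 h was read at 1545.3 and 1961.7, against 915.7 and 1146 at 1 h, and DUSP5 at 24 h at 117.3 and 118.7, against 228.7 and 238 at 6 h.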

How the results depend on the processing

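No member probe was called at 1 h, at 24 h or in ITGB4 cells against untreated cells, nor at 24 h against 1 h, under any of the 9 other settings or with any 1 array left out. The count of called member probes at 6 h against untreated cells was 1 as reported, 0 with normexp, median scaling, the series value table or the pooled-variance test, 2 with the replicate block or the array background block, and 0 to 1 with single arrays left out. At 6 h against 1 h it was 1 as reported, 0 with those same 4 settings, with no filter and with the floor, 4 with the replicate block, 3 with the array background block, and 0 to 1 with single arrays left out. At 24 h against 6 h it was 1 as reported, 3 with detection on both arrays of a group, 2 with the floor, 6 with either block, and 1 to 2 with single arrays left out (2 without HGF 24 h replicate 2, which added DUSP14). The replicate block called DUSP6 at 6 h against 1 h (adjusted p = 0.017), which the array background block did not (adjusted p = 0.060). Deviations from group means of samples with the same replicate number correlated positively in most pairs of groups (r from -0.06 to 0.66, over 0.1 in 8 of 10). The numbers were not taken to pair the samples, since not every pair passed that value and the labels name nothing shared by a number. Only differences given full statistics by the rule above were followed over the settings, so sign changes of other member differences were not looked for. Of those followed, the sign changed for DUSP1 at 1 h (-0.052) and at 24 h against 1 h (0.052) without HGF 1 h replicate 1. It also changed for DUSP3 in ITGB4 cells (-0.060) without untreated replicate 2. Over single arrays left out, the differences that changed sign ran, in that order, from -0.052 to 0.61, from -0.61 to 0.052 and from -0.060 to 0.77. The cause of these changes was not tested.

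Over all probes, the count called at 1 h was 0, against 427 with the replicate block (70 higher, 357 lower), 36 without HGF 24 h replicate 1 and 0 otherwise. At 24 h against 1 h it was 0, against 4 with the replicate block. At 6 h it was 267 (50.9% higher), against 51 with normexp (35.3%), 246 with median scaling (17.1%), 266 in the series value table (64.3%), 200 with the floor (60.5%), 407 with detection on both arrays, 1089 with the replicate block, 1066 with the array background block and 0 with the pooled-variance test, and 0 to 509 with single arrays left out. At 6 h against 1 h it was 654 (48.0% higher), against 202 with normexp (33.7%), 686 with median scaling (23.0%), 447 in the value table (60.9%), 337 with the floor, 1871 and 1690 with the blocks, 0 with the pooled-variance test and 0 to 1062 with single arrays left out. At 24 h against 6 h it was 1165 (51.0% higher), against 696 with normexp, 934 with median scaling (65.6%), 994 in the value table (40.5%), 2245 and 2163 with the blocks, 107 with the pooled-variance test and 308 to 1065 with single arrays left out. The value table moved the median of all probes by 0.16 at 6 h and by 0.15 at 6 h against 1 h.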
